A study of Arabidopsis thaliana with 12 samples.

Results

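Galactinol synthases and raffinose synthase are the enzymes that make raffinose in Arabidopsis leaves, and 5 of their genes were followed here: GolS1 (AT2G47180), GolS2 (AT1G56600), GolS3 (AT1G09350), GolS4 (AT1G60470) and RS5 (AT5G40390, which the RefSeq reference table names SIP1). They were picked by gene identifier and are 5 of the 37813 genes in the count table. All 5 were among the 20088 protein-coding genes that had at least 5 reads in at least 3 samples and were tested. RNA-seq was done on whole rosettes of 4-week-old Arabidopsis thaliana grown in an 8 h photoperiod, with 3 samples in each of 4 groups. The groups were jac1 harvested 30 min after 100 mJ cm-2 of UV-C, wild type (WT) with the same UV-C treatment, non-treated (NT) jac1 and NT WT. All plants, the WT included, carried the Col-0 gl1 background, a single mutant line (jac1-1) stood for the loss of JAC1, and each sample pooled at least 4 rosettes. UV-C is short-wave ultraviolet light used here as an oxidative stress, and JAC1 is an auxilin-like protein needed for chloroplasts to gather in weak light. The comparisons address how these genes respond to UV-C in each genotype, how jac1 and WT differ in each condition, and whether the response differs between genotypes.

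Galactinol synthase joins UDP-galactose to myo-inositol and gives galactinol, the committed step of the pathway. Raffinose synthase then passes the galactose of galactinol to sucrose, which yields raffinose and frees myo-inositol. Galactinol and raffinose accumulate in leaves under drought, cold, heat and oxidative stress, where they are described as osmoprotectants and scavengers of hydroxyl radicals, and GolS1 and GolS2 are known for their response to drought, salt and heat, whereas GolS3 is known for its response to cold.

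In the annotation used for counting (Araport11, TAIR10 coordinates), GolS1 lay at chr2:19368798-19370478 on the minus strand, GolS2 at chr1:21207537-21209635 on the plus strand and GolS3 at chr1:3019639-3021443 on the plus strand. GolS4 lay at chr1:22278975-22280593 on the minus strand and RS5 at chr5:16161449-16165453 on the plus strand. Summed exon lengths were 1392 bases for GolS1, 1435 for GolS2, 1546 for GolS3, 1350 for GolS4 and 2991 for RS5. The coding sequences of GolS2 and GolS3 shared 83.3% of aligned bases, against 70.7% to 74.2% for the other pairs among GolS1 to GolS4. RS5, with a longer coding sequence, shared 70% to 73.6% with GolS1 to GolS4, so values of that size do not show relatedness. No 76-base stretch of the exons of these genes occurred anywhere else in the genome without a mismatch. The ends of 2 genes overlapped neighbours on the opposite strand, by 43 exonic bases (3.09%) in GolS1 and 33 bases (2.44%) in GolS4, and the counting did not use strand.

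The 250 bases before each annotated start are shown because they hold different sets of known stress-related motifs. They were read from the RefSeq TAIR10.1 genome in the direction of the gene, at chr2:19370479-19370728 (minus strand) for GolS1, chr1:21207287-21207536 (plus) for GolS2, chr1:3019389-3019638 (plus) for GolS3, chr1:22280594-22280843 (minus) for GolS4 and chr5:16161199-16161448 (plus) for RS5. Capitals mark matches to 4 motifs, searched on both strands: GAANNTTC is the heat shock element, which heat shock factors bind. CCGAC is the DRE core, the target of DREB factors in the response to cold and dehydration, and all its matches here lie on the minus strand and so read as its reverse complement. ACGTG is the core of the abscisic acid response element (ABRE), and CACGTG is the G-box, which contains the ABRE core on both strands.
GolS1: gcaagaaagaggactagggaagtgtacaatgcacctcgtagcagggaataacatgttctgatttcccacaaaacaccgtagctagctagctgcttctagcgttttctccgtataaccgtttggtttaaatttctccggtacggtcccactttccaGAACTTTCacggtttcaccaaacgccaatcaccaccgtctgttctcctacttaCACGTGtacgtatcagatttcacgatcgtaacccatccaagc
GolS2: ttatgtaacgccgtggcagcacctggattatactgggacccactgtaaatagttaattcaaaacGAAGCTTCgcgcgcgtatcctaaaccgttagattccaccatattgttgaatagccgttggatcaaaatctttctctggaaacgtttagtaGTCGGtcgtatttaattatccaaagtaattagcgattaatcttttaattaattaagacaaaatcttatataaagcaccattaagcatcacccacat
GolS3: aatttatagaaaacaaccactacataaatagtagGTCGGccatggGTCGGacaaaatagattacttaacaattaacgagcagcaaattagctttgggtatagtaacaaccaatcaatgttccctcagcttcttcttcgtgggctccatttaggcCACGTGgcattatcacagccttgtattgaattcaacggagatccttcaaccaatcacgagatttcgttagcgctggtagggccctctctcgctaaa
GolS4: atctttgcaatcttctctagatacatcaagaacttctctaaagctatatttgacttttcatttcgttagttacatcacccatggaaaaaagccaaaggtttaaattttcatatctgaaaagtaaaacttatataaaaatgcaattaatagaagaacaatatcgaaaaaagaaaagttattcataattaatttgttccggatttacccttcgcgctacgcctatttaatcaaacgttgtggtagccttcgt
RS5: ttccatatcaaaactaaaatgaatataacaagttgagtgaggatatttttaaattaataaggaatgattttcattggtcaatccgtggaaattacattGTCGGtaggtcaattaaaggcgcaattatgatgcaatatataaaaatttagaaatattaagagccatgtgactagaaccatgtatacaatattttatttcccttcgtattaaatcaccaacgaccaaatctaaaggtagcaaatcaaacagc
GolS1 had a heat shock element 95 to 88 bases before the start and a G-box at 42 to 37 bases, and GolS2 had a heat shock element at 186 to 179 bases and a DRE core at 96 to 92 bases. GolS3 had DRE cores at 216 to 212 and at 205 to 201 bases and a G-box at 96 to 91 bases, RS5 had a DRE core at 152 to 148 bases, and GolS4 had no match. Of 27427 promoters of the same length, 9.54% held a heat shock element, 12% a DRE core, 22.9% an ABRE core and 6.49% a G-box. The evening element AAAATATCT, present in 2.36% of promoters, was in none of the 5. A match describes the letters of the window and does not show that a factor binds there.

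Total counts were 20897905 to 27194762 in UV-C treated samples and 33999174 to 40445085 in NT samples. Values are given as CPM, counts scaled to library size with TMM factors, which were 0.825 to 0.856 in UV-C treated jac1, 0.995 to 1.03 in UV-C treated WT, 1.03 to 1.06 in NT jac1 and 1.10 to 1.15 in NT WT. Chloroplast genes took 1.64% to 2.34% of counts in UV-C treated samples and 0.0172% to 0.0219% in NT samples. Mitochondrial genes took 0.414% to 0.560% and 0.0045% to 0.0074%. The tested genes held 21458391 of 23544754 counts in replicate 1 of UV-C treated WT, against 40097172 of 40445085 in replicate 1 of NT WT. No call of the 5 genes changed when only nuclear genes were used, which removes organelle genes only. The source of this difference between UV-C treated and NT libraries was not tested. JAC1 itself had 135 to 161 CPM in NT jac1 and 88.3 to 99.4 CPM in NT WT, so its transcript level was not lost in jac1 and does not separate the genotypes by absence. Leaf mesophyll markers were detected in all samples (5 of 5 genes, 27204 to 38888 CPM summed), companion cell markers too (3 of 3 genes, 128 to 212 CPM), root markers summed to at most 0.862 CPM and seed storage markers to at most 0.073 CPM. The 4 floral organ markers summed to 0.669 to 0.977 CPM in UV-C treated jac1, 2.57 to 3.52 CPM in UV-C treated WT, 0.512 to 0.703 CPM in NT jac1 and 1.93 to 2.84 CPM in NT WT, and their part in the genotype differences was not tested. In whole rosettes, fewer cells of a type and less RNA per cell cannot be told apart.

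By the rule given next, UV-C raised GolS1 and GolS3 in both genotypes and GolS2 in jac1, whereas RS5 fell in WT. GolS2 in WT and RS5 in jac1 moved in the same direction but missed the fold limit. A gene was called a differentially expressed gene (DEG) at a false discovery rate (FDR) under 0.01 and an absolute log2 fold change (FC) above 1, by the quasi-likelihood test of edgeR, with Benjamini-Hochberg adjustment of p over the 20088 tested genes. By this rule 3 of the 5 genes were DEGs after UV-C in jac1, all higher, where 13.7% of tested genes were DEGs and 8.95% were higher. In WT 3 of 5 were DEGs after UV-C, 2 higher and 1 lower, where 9.25% of tested genes were DEGs, 6.99% higher and 2.27% lower. The groups did not overlap for 64.3% of all tested genes in jac1 and for 58.3% in WT.

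**Figure D1:**
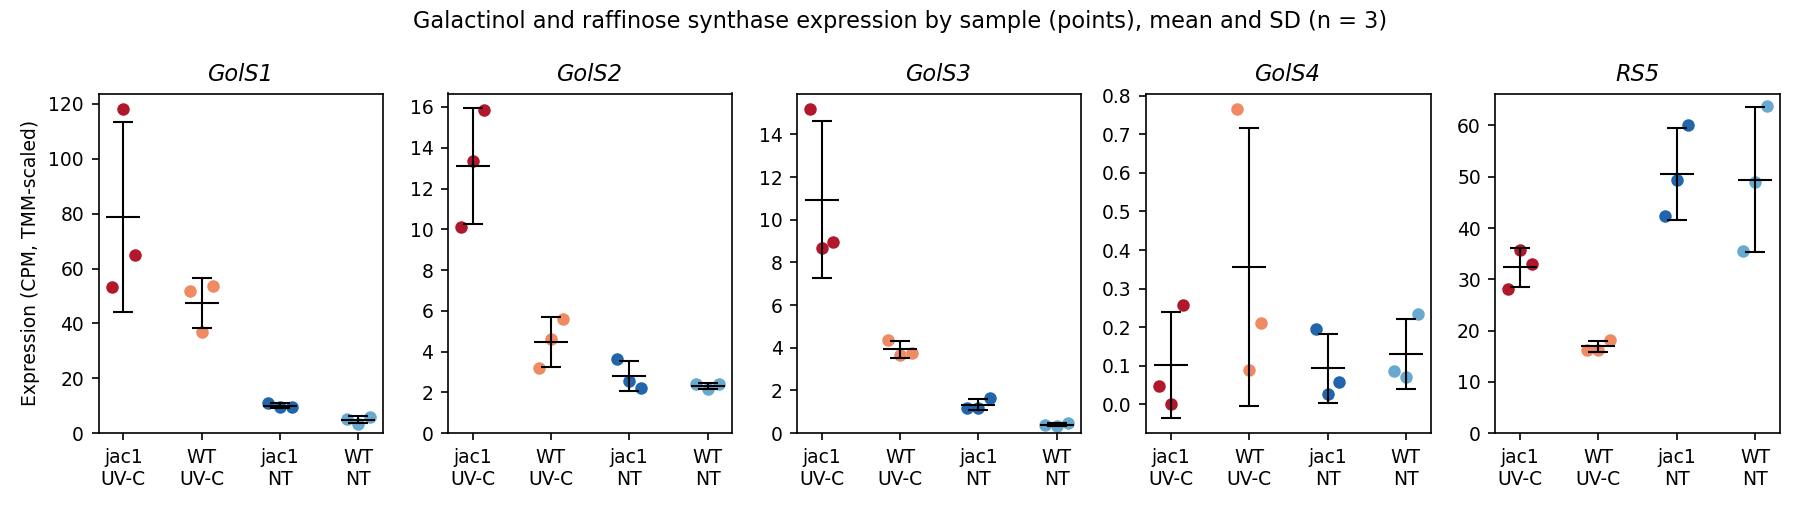
CPM (TMM-scaled, linear axis) of GolS1, GolS2, GolS3, GolS4 and RS5 in each sample (points), with group means and SD (bars, n = 3) for UV-C treated jac1, UV-C treated WT, NT jac1 and NT WT. GolS1 and GolS3 stood higher in all UV-C treated samples than in all NT samples, and the RS5 points of UV-C treated WT, 16.2 to 18.2 CPM, stood below those of every other group.

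GolS1, the most abundant galactinol synthase transcript in these rosettes, had 53.4, 118 and 64.9 CPM in UV-C treated jac1, against 11.1, 9.45 and 9.54 CPM in NT jac1. In WT, GolS1 had 51.9, 37.0 and 53.6 CPM after UV-C, against 5.24, 3.44 and 5.98 CPM in NT plants. UV-C treated samples were above NT samples in both genotypes without overlap, and replicate 2 of UV-C treated jac1 stood well above the other samples. The log2 FC of GolS1 was 2.97 ± 0.27 (SE; FDR 4.94e-07) in jac1 and 3.28 ± 0.28 (FDR 5.77e-07) in WT by edgeR, which are 7.83-fold and 9.73-fold increases.

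GolS3 had 15.2, 8.67 and 8.95 CPM in UV-C treated jac1 and 1.16, 1.20 and 1.65 CPM in NT jac1. In WT the GolS3 level was 4.37, 3.65 and 3.76 CPM after UV-C and 0.392, 0.356 and 0.470 CPM in NT plants, the last from 15 to 18 reads a sample. Each UV-C treated group lay above its NT group, and the lowest group was NT WT. GolS3 rose by a log2 FC of 3.04 ± 0.23 (SE; FDR 8.26e-08, edgeR) in jac1 and 3.27 ± 0.28 (FDR 5.34e-07) in WT.

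GolS2 had 10.1, 13.3 and 15.8 CPM in UV-C treated jac1, against 3.66, 2.54 and 2.22 CPM in NT jac1. In WT, GolS2 had 3.20, 4.63 and 5.61 CPM after UV-C, against 2.42, 2.16 and 2.40 CPM in NT plants. The groups did not overlap in either genotype, but in WT the lowest UV-C treated sample was close to the NT samples. GolS2 rose by a log2 FC of 2.21 ± 0.22 (SE; FDR 1.23e-06, edgeR) in jac1. The WT value was 0.94 ± 0.24 (FDR 0.00490), below the fold limit, and became 1.14 (FDR 0.00181) without replicate 1 of UV-C treated WT.

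GolS4, a further galactinol synthase, was near the limit of detection, with 1, 0 and 5 reads in UV-C treated jac1, 17, 2 and 4 reads in UV-C treated WT, 8, 1 and 2 reads in NT jac1 and 4, 3 and 9 reads in NT WT. The sample with 0 reads allows a GolS4 level of up to 0.172 CPM, counting 3 reads as the limit and counting error only. All 4 groups overlapped. The log2 FC of GolS4 was 0.10 (95% interval -2.43 to 2.63) in jac1 and 1.47 (-0.29 to 3.23) in WT, so that a difference was not detectable at this depth.

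RS5, the raffinose synthase, changed after UV-C in the opposite direction to GolS1, GolS2 and GolS3 in both genotypes. RS5 had 28.1, 35.7 and 33.1 CPM in UV-C treated jac1, against 42.3, 49.3 and 60.1 CPM in NT jac1. In WT, RS5 had 16.3, 16.2 and 18.2 CPM after UV-C, against 35.5, 48.9 and 63.8 CPM in NT plants. UV-C treated samples were below NT samples in both genotypes, and WT showed the wider gap. RS5 fell by 1.55 ± 0.19 on the log2 scale (SE; FDR 1.46e-05, edgeR) in WT, while the jac1 value of -0.65 ± 0.18 (FDR 0.00609) did not reach the fold limit. Tested against the fold limit itself (glmTreat), the WT fall of RS5 had an FDR of 0.0258.

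**Figure D2:**
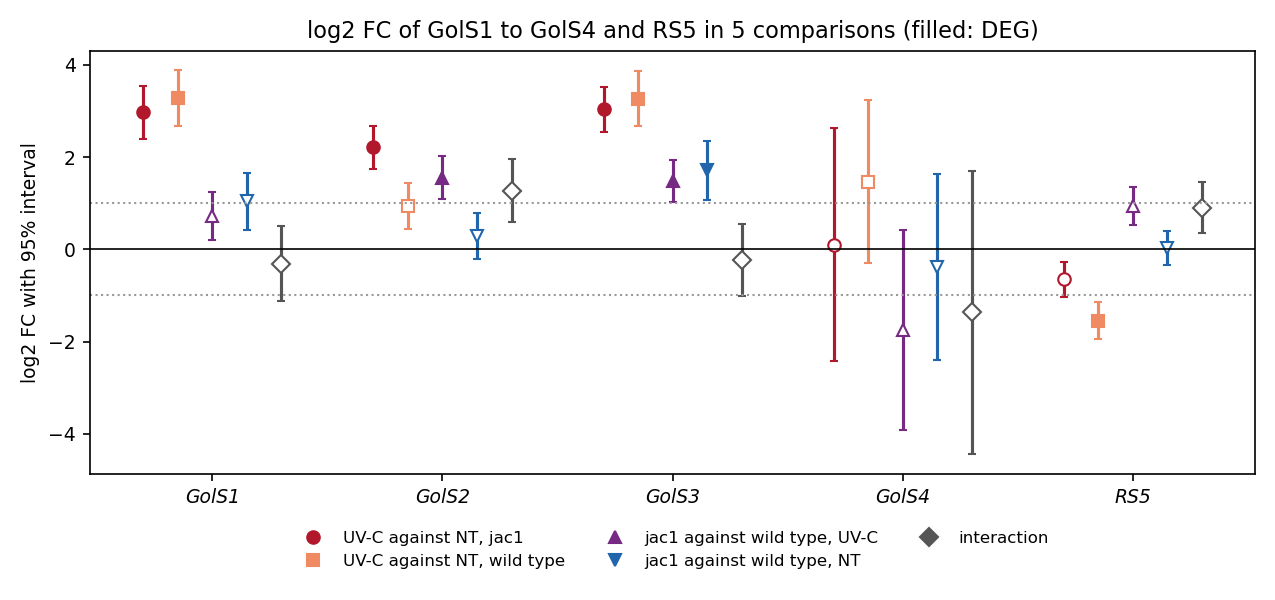
log2 FC (y axis) of each gene in 5 comparisons, with 95% intervals from the edgeR fit; filled symbols are DEGs, open symbols are not, and dotted lines mark the limit of 1. GolS1 and GolS3 lie near 3 for UV-C in both genotypes, RS5 lies below 0, and the GolS4 intervals are several log2 units wide.

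After UV-C, jac1 had higher GolS2 and GolS3 than WT. These 2 of 5 genes were DEGs, both higher, where 4.20% of tested genes were DEGs and 2.52% were DEGs higher in jac1. GolS2 was higher by a log2 FC of 1.55 ± 0.22 (SE; FDR 8.90e-05, edgeR), a 2.94-fold difference between 10.1 to 15.8 CPM in jac1 and 3.20 to 5.61 CPM in WT. GolS3 was higher by 1.48 ± 0.21 (FDR 9.91e-05), with 8.67 to 15.2 CPM in jac1 and 3.65 to 4.37 CPM in WT. Neither pair of groups overlapped, which held for 50.7% of tested genes. Tested against the fold limit itself, neither remained a DEG (FDR 0.194 for GolS2 and 0.290 for GolS3).

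The other genes did not pass both limits in this comparison. RS5 had 28.1 to 35.7 CPM in UV-C treated jac1 and 16.2 to 18.2 CPM in UV-C treated WT, with no overlap, and a log2 FC of 0.93 ± 0.19 (SE; FDR 0.00162, edgeR). This RS5 value was 1.03 and a DEG without replicate 1 of UV-C treated jac1. GolS1 overlapped between the genotypes, with a log2 FC of 0.73 (95% interval 0.20 to 1.25; FDR 0.0274), and the value was 0.32 at its lowest when single samples were left out. GolS4 had a log2 FC of -1.75 (95% interval -3.93 to 0.42; FDR 0.181).

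In NT plants, GolS3 was higher in jac1 and was the only 1 of the 5 that was a DEG, where 1.94% of tested genes were DEGs and 1.03% were higher. GolS3 had 1.16 to 1.65 CPM in NT jac1, from 44 to 58 reads a sample, and 0.356 to 0.470 CPM in NT WT, a log2 FC of 1.71 ± 0.30 (SE; FDR 0.00129, edgeR) or 3.28-fold. Against the fold limit itself its FDR was 0.476. GolS1 had 9.45 to 11.1 CPM in NT jac1 and 3.44 to 5.98 CPM in NT WT, also without overlap, as for 35.9% of tested genes. Its log2 FC of 1.04 ± 0.29 had an FDR of 0.0243, and it became a DEG when only the NT samples were fitted (FDR 0.00431) or without replicate 2 of UV-C treated jac1 (FDR 0.00240).

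GolS2, GolS4 and RS5 overlapped between NT jac1 and NT WT. GolS2 had a log2 FC of 0.28 (95% interval -0.22 to 0.78; FDR 0.460, edgeR). RS5 averaged 50.6 ± 8.96 CPM in NT jac1 and 49.4 ± 14.2 CPM in NT WT (SD, n = 3 each), a log2 FC of 0.04 (95% interval -0.33 to 0.40; FDR 0.922, edgeR). GolS4 had a log2 FC of -0.39 (95% interval -2.40 to 1.63).

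The response to UV-C was set against genotype in the interaction, which is the log2 FC after UV-C in jac1 minus that in WT. None of the 5 genes passed both limits, where 3.88% of tested genes did. The largest positive differences were those of GolS2, 1.27 ± 0.32 (SE; FDR 0.0103, edgeR), and RS5, 0.90 ± 0.26 (FDR 0.0206). These 2 of the 5 genes had an unadjusted p under 0.05, as had 36.9% of tested genes, and both had an FDR under 0.05, as had 24.7%. GolS2 passed both limits by DESeq2 (1.23, FDR 0.00140) and by the likelihood ratio test (1.31, FDR 0.000130). Left-out samples changed the interaction call as well: GolS2 passed without replicate 3 of UV-C treated WT (1.46), replicate 1 of NT jac1 (1.52) or replicate 1 of UV-C treated jac1 (1.43), and RS5 without replicate 1 of NT WT (1.07). For GolS1 the difference between genotypes was -0.31 (95% interval -1.13 to 0.50) and for GolS3 -0.23 (-1.01 to 0.55), intervals that include differences of about 1 log2 unit. For GolS4 it was -1.37 (-4.45 to 1.71).

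Levels were set between genes per kb of exon. In UV-C treated jac1 the order was GolS1 (56.6 ± 24.8 CPM per kb; SD, n = 3), RS5 (10.8 ± 1.30), GolS2 (9.13 ± 1.99), GolS3 (7.07 ± 2.38) and GolS4 (0.0754 ± 0.101). The samples of RS5 and GolS2, and those of GolS2 and GolS3, overlapped there. In UV-C treated WT the order was the same, with GolS1 at 34.1 ± 6.59, RS5 at 5.65 ± 0.377, GolS2 at 3.12 ± 0.846, GolS3 at 2.54 ± 0.251 and GolS4 at 0.263 ± 0.267 CPM per kb, and the samples of GolS2 and GolS3 overlapped.

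In NT plants RS5 led the order of levels per kb. It had 16.9 ± 3.0 CPM per kb in NT jac1 (SD, n = 3), above GolS1 (7.19 ± 0.649), GolS2 (1.96 ± 0.527), GolS3 (0.866 ± 0.176) and GolS4 (0.0687 ± 0.0658). In NT WT it had 16.5 ± 4.74 CPM per kb, above GolS1 (3.51 ± 0.940), GolS2 (1.62 ± 0.101), GolS3 (0.262 ± 0.0379) and GolS4 (0.0971 ± 0.0670). No neighbours in either NT order overlapped.

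The summed level of GolS1 to GolS4 per kb stood above RS5 in every UV-C treated sample and below it in every NT sample. The ratio of that sum to RS5 was 6.66 ± 1.46 in UV-C treated jac1, 7.07 ± 1.01 in UV-C treated WT, 0.615 ± 0.171 in NT jac1 and 0.349 ± 0.120 in NT WT (SD, n = 3 each). Of the sum, GolS1 made up 75.9% ± 8.16 in UV-C treated jac1, 85.0% ± 2.29 in UV-C treated WT, 71.4% ± 1.51 in NT jac1 and 63.3% ± 4.63 in NT WT. GolS2 made up 13.1%, 7.97%, 19.2% and 30.2% in those 4 groups, and GolS3 made up 10.8%, 6.44%, 8.72% and 4.84%.

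**Figure D3:**
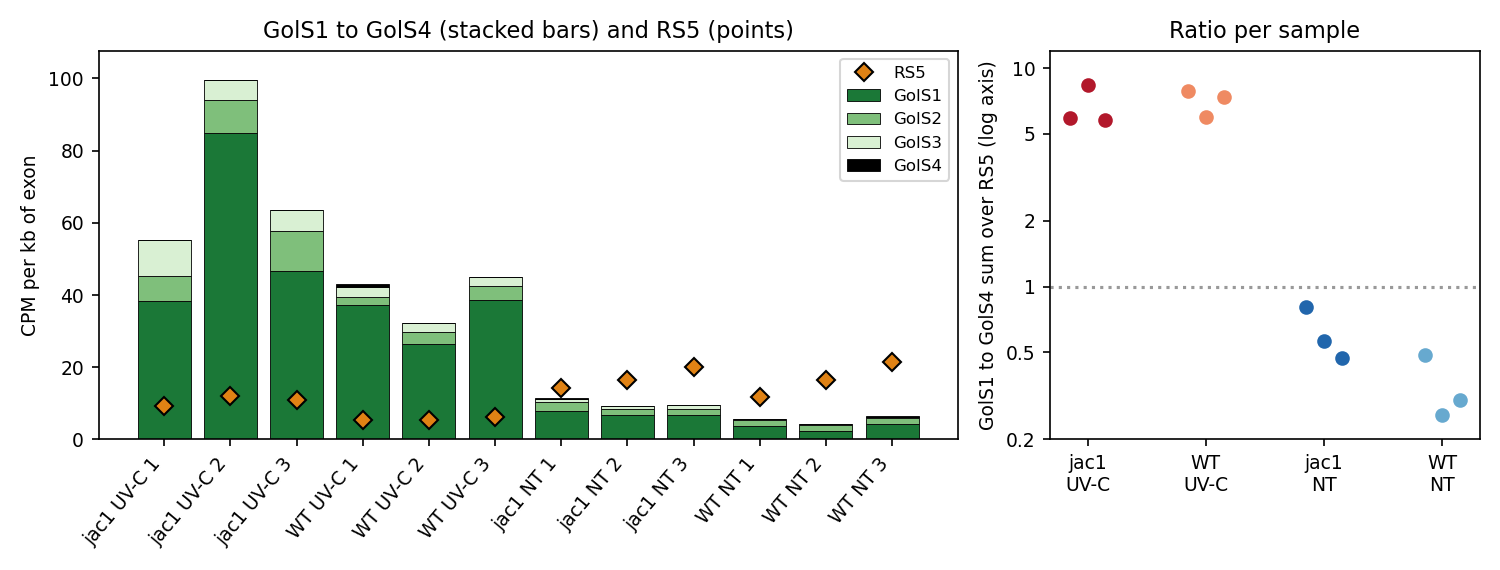
CPM per kb of exon of GolS1 to GolS4 (stacked bars) and RS5 (points) in each of the 12 samples (left), and the ratio of the galactinol synthase sum to RS5 on a log axis (right; dotted line at 1). The ratio was 5.76 to 8.35 in UV-C treated jac1, 5.94 to 7.88 in UV-C treated WT, 0.473 to 0.804 in NT jac1 and 0.260 to 0.486 in NT WT.

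Of 27 other genes of the pathway, 22 were tested. GolS6, GolS7, GolS10, the stachyose synthase gene STS and MIOX5 had too few reads. After UV-C, 3 of 22 were DEGs in jac1, where 13.7% of all tested genes were, and 3 of 22 in WT, where 9.25% were. All were higher, with medians over the 22 genes of 0.10 and 0.08 against medians over all tested genes of 0.05 in jac1 and 0 in WT. The largest change was that of GolS8, a member of the same glycosyltransferase family that the reference table names GATL10, with a mean of 33.2 CPM in UV-C treated jac1, 39.2 CPM in UV-C treated WT, 3.72 CPM in NT jac1 and 2.21 CPM in NT WT. GolS8 rose by a log2 FC of 3.17 in jac1 (FDR 1.90e-06, edgeR) and 4.13 in WT (FDR 3.70e-07), and was 1 of the 3 DEGs in each genotype. GolS9 is likewise named GATL4 in the reference. GolS8 and GolS9 shared 55.4% to 61.3% of aligned coding bases with GolS1 to GolS4, against 66.6% to 83% for GolS5, GolS6, GolS7 and GolS10. By the same measure RS5, a different enzyme with a longer coding sequence, shared 70% to 73.6% with GolS1 to GolS4. These percentages therefore do not show how closely the genes are related. Whether GolS8 or GolS9 makes galactinol was not tested.

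UGE1, an epimerase that interconverts UDP-glucose and UDP-galactose (the galactose donor of galactinol synthase), separated UV-C treated jac1 from the other groups. The direction in which the enzyme ran was not tested. UGE1 had 320, 285 and 220 CPM in UV-C treated jac1, 99.3, 104 and 93.9 CPM in UV-C treated WT, 80.6, 73.1 and 65.9 CPM in NT jac1 and 96.8, 86.6 and 78.3 CPM in NT WT. UV-C treated jac1 lay above the other 3 groups, which lay close to each other. The log2 FC of UGE1 was 1.91 ± 0.12 (SE; FDR 2.00e-08, edgeR) after UV-C in jac1, 0.18 (FDR 0.222) after UV-C in WT and 1.47 (FDR 8.70e-07) for UV-C treated jac1 against UV-C treated WT. Its interaction of 1.73 ± 0.17 (FDR 1.00e-05) was the only one among the 22 genes past both limits. UGE5, of the same family, was also higher in UV-C treated jac1 than in UV-C treated WT (1.17, FDR 0.00163).

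**Figure D4:**
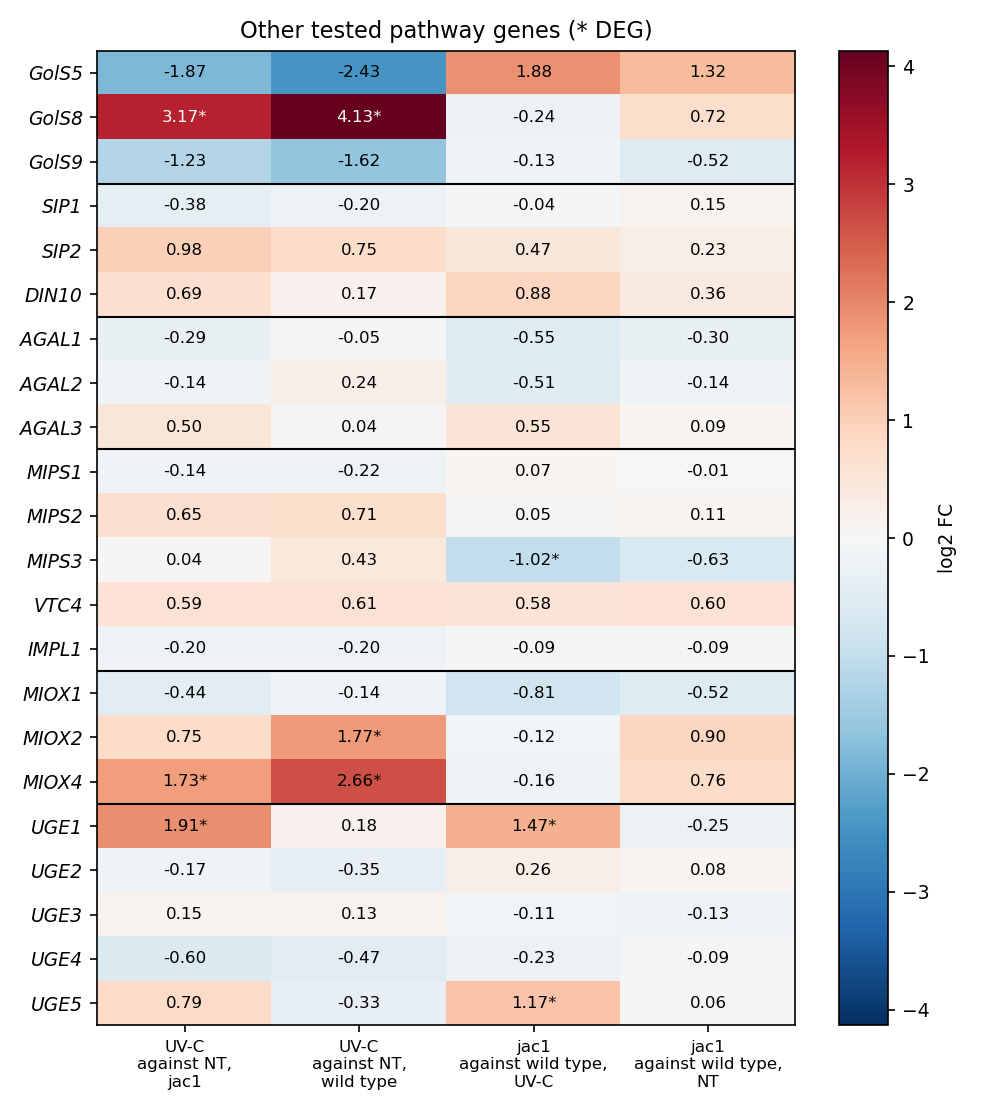
log2 FC (colour and printed value, with asterisks for DEGs) of the 22 other tested pathway genes in 4 comparisons. The groups from top to bottom are other genes named GolS (with GolS8 and GolS9, also named GATL10 and GATL4), raffinose and stachyose synthase family, alpha-galactosidases, myo-inositol synthesis, myo-inositol oxidation and UDP-glucose 4-epimerases. UGE1 is a DEG in jac1 after UV-C and in UV-C treated jac1 against UV-C treated WT, and no gene is a DEG between NT jac1 and NT WT.

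MIOX4, a myo-inositol oxygenase, rose after UV-C in jac1 (1.73, FDR 0.00163, edgeR) and in WT (2.66, FDR 0.000113), at means under 1 CPM in every group, and MIOX2 rose in WT (1.77, FDR 0.000588). None of the 5 genes of myo-inositol synthesis was a DEG after UV-C in either genotype. MIPS3, a myo-inositol-phosphate synthase, was lower in UV-C treated jac1 than in UV-C treated WT (-1.02, FDR 0.000276). None of the 3 genes listed as alpha-galactosidases, enzymes that break raffinose down, was a DEG in any of the 5 comparisons. The same held for the 3 tested genes of the raffinose and stachyose synthase family. The family name does not show whether a member makes raffinose or breaks it down, and this was not tested. Within that family SIP2 came closest after UV-C in jac1 (0.98, FDR 7.22e-05), with a mean of 285 CPM in UV-C treated jac1 and 144 CPM in NT jac1.

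Transcription factors known to bind the DRE core or the heat shock element were read alongside. Factors that bind the ABRE core or the G-box were not read. Of 5 DREB factors, which bind the DRE core, 2 rose after UV-C in jac1, and 3 rose and 1 fell after UV-C in WT. Among all tested genes, 8.95% were DEGs higher after UV-C in jac1, and 6.99% were DEGs higher and 2.27% lower in WT. CBF3 had the largest of these changes, 5.11 (FDR 2.33e-07, edgeR) in jac1 and 2.70 (FDR 4.26e-05) in WT. CBF3 averaged 5.05 CPM in UV-C treated jac1, 2.77 in UV-C treated WT, 0.147 in NT jac1 and 0.431 in NT WT. Its lowest NT jac1 sample, 0.0242 CPM, held 1 read, so the size of the jac1 change rests on few NT reads. CBF1 rose by 2.96 (FDR 0.000474) in jac1 and 2.40 (FDR 0.00236) in WT. CBF2 rose in WT (2.63, FDR 0.000100), and DREB2B fell in WT by 2.19 (FDR 0.00263). None of the 5 was a DEG between UV-C treated jac1 and UV-C treated WT, where 4.20% of tested genes were DEGs. Between NT jac1 and NT WT, CBF2 was higher (1.72, FDR 0.00793) and DREB2B lower (-1.97, FDR 0.00562), where 1.94% of tested genes were DEGs. DREB2B shared 1086 exonic bases (69.5%) with a gene on the opposite strand, and reads matching both genes were left out. Its group means were 0.065 CPM in UV-C treated jac1, 0.184 in UV-C treated WT, 0.219 in NT jac1 and 0.879 in NT WT, so both its calls rest on few reads. Of 6 heat shock factors, HSFA3 rose in jac1 (1.02, FDR 1.79e-05) and in WT (1.22, FDR 4.47e-06). HSFA2 rose in WT (2.03, FDR 0.00508) and had 1.97 (FDR 0.0122) in jac1, and the other 4 were no DEGs. These are 1 of 6 higher in jac1 and 2 of 6 in WT, beside 8.95% and 6.99% of tested genes.

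Stress marker and clock genes were read in the same samples. The 8 cold and dehydration markers summed to 1562 to 1677 CPM in UV-C treated jac1, 389 to 509 CPM in UV-C treated WT, 313 to 334 CPM in NT jac1 and 261 to 317 CPM in NT WT. Of the 8, 6 were DEGs higher in UV-C treated jac1 than in UV-C treated WT. They were COR15A (2.37), COR47 (1.79), ERD10 (1.36), KIN1, RAB18 (2.78) and RD29A (2.51). In that comparison 4.20% of tested genes were DEGs and 2.52% were DEGs higher in jac1. Only COR15A was a DEG between the NT genotypes (1.54). In the interaction 5 of the 8 passed both limits, all with positive values, where 3.88% of tested genes passed in either direction. The 7 heat markers summed to 14.8 to 29.4 CPM in UV-C treated jac1, 17.5 to 34.7 CPM in UV-C treated WT, 15.7 to 18.6 CPM in NT jac1 and 15.1 to 19.0 CPM in NT WT, and the groups overlapped. Of the 5 heat markers tested, only the small heat shock protein gene AT5G59720 was a DEG after UV-C, in jac1 (1.01) and in WT (2.16), with an interaction of -1.15 (FDR 0.00738, edgeR), and none was a DEG between the genotypes in either condition.

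The morning genes CCA1 and LHY summed to 836 to 882 CPM in UV-C treated jac1, 1007 to 1029 CPM in UV-C treated WT, 1439 to 1661 CPM in NT jac1 and 394 to 713 CPM in NT WT. Both were DEGs higher in NT jac1 than in NT WT, where 1.94% of tested genes were DEGs and 1.03% were DEGs higher. Neither was a DEG between the UV-C treated genotypes. In the interaction both passed both limits with negative values, where 3.88% of tested genes passed in either direction. After UV-C, LHY was a DEG lower in jac1 (-1.13) and CCA1 a DEG higher in WT (1.05). The 4 evening genes summed to 20.9 to 23.7 CPM in UV-C treated jac1, 25.6 to 30.2 CPM in UV-C treated WT, 28.7 to 35.3 CPM in NT jac1 and 123 to 138 CPM in NT WT. All 4 were DEGs lower in NT jac1 than in NT WT, where 1.94% of tested genes were DEGs in either direction. All 4 were also DEGs lower after UV-C in WT, where 2.27% of tested genes were DEGs lower. Of the 4, 2 passed both limits in the interaction, with positive values. Between the UV-C treated genotypes PRR5 alone was a DEG, higher in jac1 (1.26), and after UV-C in jac1 PRR5 was higher (1.29) and ELF4 lower (-2.98). The part of these marker and clock genes in the differences of GolS1, GolS2, GolS3 and RS5 was not tested.

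The genes whose log2(CPM + 0.5) followed each member most closely over the 12 samples were found by Pearson correlation among 17457 genes with a mean of at least 1 CPM. For GolS1 they were AT5G44050 (0.987), PES2 (0.985) and AT4G18340 (0.984), for GolS2 AT1G04790 (0.980), ABCG7 (0.979) and AT1G12650 (0.978), and for GolS3 PSAE-2 (0.989), ELC (0.988) and AT3G53830 (0.985). For RS5 they were ACDO1 (0.979), ATCAD4 (0.969) and CSLB04 (0.968), and for GolS4, compared with 17458 genes at its few reads, AT4G24610 (0.938), BEH3 (0.907) and AT1G65710 (0.874). No member was among the 3 closest of another member: GolS1 and GolS3 had a correlation of 0.936, GolS2 and GolS3 0.879, GolS1 and GolS2 0.848, and RS5 had -0.665 with GolS1, -0.350 with GolS2 and -0.543 with GolS3. The 12 samples fall into the 4 groups and share depth differences between UV-C treated and NT libraries, so these values describe patterns over groups and no p is given.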

How the data were processed

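RNA-seq libraries were made from 12 samples (3 in each of 4 groups, grouped by the labels). Per the file header and the study's methods, the authors aligned reads with STAR 2.5.2b and counted reads over exons with featureCounts of Subread 1.6.2 on the Araport11 annotation. The deposited values are raw counts per gene, without normalization. The counting used no strand and left out reads that matched several places or several genes, so shared gene ends lose reads. No other unit was used.

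Testing was limited to protein-coding genes reaching 5 reads in 3 or more samples (20088 of 37813 genes). TMM factors, 1 mean per group and the quasi-likelihood test of edgeR 4.0.16 (R 4.3.3) were used with all 12 samples, with Benjamini-Hochberg adjustment over all tested genes. Calls needed an FDR under 0.01 together with an absolute log2 FC over 1. Intervals at 95% are the log2 fold change ± the t quantile times its SE. The procedure was tested on simulated data. DESeq2 1.42.0, the likelihood ratio test used by the authors, glmTreat, other scalings and filters, blocks and each sample left out were the alternatives. Sample titles share replicate numbers. The deviations of same-numbered samples correlated at 0.398, 0.128 and 0.253 between non-treated jac1 and wild type. Only this correlation speaks for a pairing of those samples, and its source was not tested. Library names carry other numbers than the titles. The only NT jac1 and NT WT samples with the same library-name number correlated at -0.231. The main test used no pairing, so its SE, intervals and FDR are unpaired, and the numbers entered only as a block among the alternatives. In the other comparisons at least 1 of the 3 correlations was below 0.1. Replicate libraries differed by more than sampling noise. Promoters and motifs were read with Python 3.11.15 from TAIR10.1, whose start and end were the same as in the files for 27423 of 27427 nuclear protein-coding genes.

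The 5 genes and the lists were chosen with earlier results of these data known. By rule the 5 genes and the 3 genes most like each of them are named, and list genes called in any comparison could be named; some such genes stand in the counts only. Other genes of the lists are named where a count or a near-limit value called for it, chosen after their values were seen. The authors describe the replicates as biological, each a pool of rosettes.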

Additional observations from a re-analysis of the deposited data

Results flagged for a closer look

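Of the 5 genes, 2 had a UV-C response that differed between jac1 and WT by the interaction term at an FDR under 0.05 (edgeR, quasi-likelihood test), as had 24.7% of all tested genes. For GolS2 the log2 FC after UV-C was 2.21 in jac1 and 0.94 in WT, a difference of 1.27 ± 0.32 (SE; FDR 0.0103). For RS5 it was -0.65 in jac1 and -1.55 in WT, a difference of 0.90 ± 0.26 (SE; FDR 0.0206). The sign was positive in both genotypes for GolS2 and negative in both for RS5, and the groups of UV-C treated and NT samples did not overlap in either.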

How the results depend on the processing

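Under 13 alternatives (12 for the interaction) and 12 fits that left out 1 sample each, GolS1 and GolS3 after UV-C in both genotypes and GolS2 after UV-C in jac1 remained DEGs. RS5 in WT, GolS3 between NT jac1 and NT WT, and GolS2 and GolS3 between UV-C treated jac1 and UV-C treated WT remained DEGs except with glmTreat. Tested against the fold limit with glmTreat, DEGs over all genes numbered 1143 for UV-C in jac1 (2752 by the main test), 777 for UV-C in WT (1859), 67 for NT jac1 against NT WT (390), 141 for UV-C treated jac1 against UV-C treated WT (844) and 128 for the interaction (779), and of the 5 genes 0 were DEGs in both genotype comparisons. Scaled by library size without TMM factors, all-gene medians shifted to -0.26 for UV-C in jac1, -0.15 for UV-C in WT, -0.11 between NT genotypes, -0.27 between UV-C treated genotypes (1272 DEGs) and -0.15 for the interaction. The share of higher DEGs became 37.8% (65.3% with TMM), 62.0% (75.5%), 40.6% (53.1%), 23.3% (60.0%) and 36.3% (54.4%) in these 5 comparisons, and no call of the 5 genes changed. NT jac1 against NT WT gave 2 DEGs of the 5 genes when only those samples were fitted or at an FDR under 0.05, and 1 to 2 without single samples. The interaction gave 1 by the likelihood ratio test, DESeq2, no filter, all annotated genes or an FDR under 0.05, and 0 to 1 without single samples. With the title numbers as a replicate block, DEGs numbered 2742, 1861, 408, 838 and 793 in the order above, and no call of the 5 genes changed. With the numbers in the library names as a block, NT jac1 against NT WT had 190 DEGs and RS5 was a DEG between UV-C treated genotypes (1.04). Values near 0 changed sign: GolS4 after UV-C in jac1 was -0.21 by the likelihood ratio test, -0.20 by library size, -0.74 with the library-name block and -1.74 to 1.23 without single samples. Between NT genotypes GolS4 was 0.80 with the library-name block and -1.51 to 0.27 without single samples, and RS5 was -0.065 by library size and -0.15 to 0.26 without single samples. The causes were not tested. The filterByExpr rule dropped GolS4, whose 0 to 17 reads a sample limit its precision.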
